A study of Homo sapiens with 112 samples.

Results

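The first hours of the androgen response were followed in VCaP cells by comparing 10 libraries treated with R1881 for 8 h with 10 libraries treated with DMSO for 8 h, which are 20 of the 55 VCaP and 57 LAPC4 libraries of the series. VCaP is a human prostate cancer cell line that depends on androgen for growth and carries a fusion that joins the promoter region of TMPRSS2 to ERG. R1881 is a synthetic androgen that cells metabolise slowly, and DMSO is the solvent in which it was given. Cells of both groups were first starved of steroid hormones, by 2 days in charcoal-stripped serum at 10% of the medium, and were then given 1 nM R1881 with DMSO in the place of a second drug, or DMSO alone. For comparison, VCaP libraries at 22 h, VCaP libraries given 1 nM R1881 with 0.5 or 2 µM of the androgen receptor antagonist darolutamide for 8 h, and LAPC4 libraries at 8 h were used. RNA was read as stranded poly-A libraries with single reads of 50 bases. Of 58684 genes in the count table, the 19266 with at least 10 reads in at least 4 VCaP libraries were tested. The sample labels number the libraries 1 to 10 in each group, and the methods of the study call its replicates biological, but nothing says which libraries came from separate cultures, so the p-values measure the spread between these libraries. A single line was used, and in RNA from whole cultures fewer cells of a type and less RNA per cell cannot be told apart.

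Androgens are steroid hormones that control transcription in luminal cells, the secretory cells of the prostate gland. Their direct targets include secreted proteases of the kallikrein family, chaperones of steroid receptors and enzymes of lipid and protein synthesis. The same hormones lower the expression of a smaller group of genes, among them enzymes that inactivate androgen. A short treatment therefore catches early rises and falls, while later time points add the effects of the proteins made in between.

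Markers of luminal prostate epithelium were detected. All 10 luminal epithelial markers were tested and all had a level above 10 CPM, reads of a gene scaled to the size of the library, in at least 1 group. None of 8 immune markers and 1 of 6 endothelial markers passed the filter, the latter being VWF with at most 0.818 CPM in any library. All 6 neuroendocrine markers were tested and 4 had a level above 10 CPM, the highest being CHGA with a median of 160 CPM with DMSO, and 3 rose and 3 fell with R1881. Of 7 basal markers, KRT5 and TP63 were not tested and DST, at 104 CPM, was the 1 above 10 CPM, and 2 rose and 1 fell. Of 8 fibroblast and smooth muscle markers, COL1A2 and DCN were not tested, and 4 of the other 6 were lower with R1881. LUM, which encodes a matrix proteoglycan, went from a median of 27.4 CPM with DMSO (range 22.2 to 29.1) to 2.11 CPM with R1881 (range 1.55 to 3.99). COL3A1 had a median of 0.425 CPM with DMSO and of 0 with R1881, so that no fold change is given. Their part in the other results was not tested.

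Libraries held 12870607 to 21882387 reads in genes with DMSO and 17330086 to 25125789 with R1881. The number of reads, the mitochondrial share and the dependence of counts on GC content gave no call between the groups (adjusted p 0.354, 0.306 and 0.512, two-sided permutation tests over 5 measures). The 10 most abundant genes took a smaller share of the reads with R1881 (5.23% ± 0.138 against 6.12% ± 0.148, SD, n = 10 each, permutation test, adjusted p = 0.0003), and fewer genes had a read (24662.6 ± 340.3 against 25472.5 ± 492.6, adjusted p = 0.0031). Their part in the counts of changed genes was not tested.

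After 8 h of R1881, 12891 of 19266 genes (66.9%) differed from DMSO at an adjusted p under 0.05, of which 6327 (32.8%) were higher and 6564 (34.1%) lower. These calls come from the quasi-likelihood test of edgeR with Benjamini-Hochberg adjustment. Under upper-quartile scaling in place of TMM scaling the split was 5228 higher and 8192 lower, and the median log2 fold change of all genes was -0.13 in place of -0.03. Most calls were small. Their median absolute log2 fold change was 0.51, and 6285 of them were 0.5 or less. A log2 fold change above 1 in either direction was called for 2818 genes (14.6%), of which 1223 (6.35%) were up-regulated and 1595 (8.28%) down-regulated, and one above 2 for 823 genes. The CPM values of the R1881 libraries all lay above those of the DMSO libraries for 3343 genes (17.4%) and all below them for 2814 genes (14.6%). With so many genes called, the count of members called in a list is read beside these shares.

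Libraries 1 to 5 and libraries 6 to 10 were also compared, since the darolutamide groups of the series hold only numbers up to 5. Between them, 0 genes were called by edgeR at 8 h (2029 at an unadjusted p under 0.05), and for 0 genes did the R1881 effect differ between them (540 unadjusted).

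STEAP4, a metalloreductase of the cell membrane (chr7:88270892-88306894, minus strand), showed the largest rise among genes above the median expression whose groups did not overlap. It had 4.98 CPM in the lowest, 6.58 in the median and 6.80 in the highest DMSO library, and 337, 392 and 435 CPM with R1881. The log2 fold change was 6.01 with a standard error (SE) of 0.057 (adjusted p = 2.3e-60). NCAPD3, a subunit of the condensin II complex that compacts chromosomes, rose from 89.5 to 102 CPM (median 96.2) to between 3482 and 3781 CPM (median 3620), a log2 fold change of 5.24 (SE 0.037). FKBP5, a co-chaperone of steroid receptors (chr6:35573585-35728583, minus strand), rose from 71.2, 80.7 and 86.0 CPM to 2691, 2967 and 3188 CPM, a log2 fold change of 5.21 (SE 0.037). For all 3 genes the lowest R1881 library lay far above the highest DMSO library.

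The other 7 of the 10 largest rises included signalling and metabolic genes. ERRFI1, a feedback inhibitor of growth factor receptors, went from 19.9, 23.0 and 25.6 CPM (lowest, median and highest library) to 741, 826 and 948 CPM. TIPARP, a mono-ADP-ribosyltransferase, went from 9.88, 10.9 and 12.8 CPM to 315, 374 and 418 CPM. RDH10, an enzyme of retinoic acid synthesis, went from 29.7, 32.1 and 37.1 CPM to 726, 932 and 1076 CPM. In each of them the lowest R1881 library lay far above the highest DMSO library. Their log2 fold changes were 5.19 (SE 0.049), 5.07 (SE 0.058) and 4.83 (SE 0.063). IL20RA, a cytokine receptor chain, rose by a log2 fold change of 3.91 (SE 0.048), and F3, the tissue factor that starts blood clotting, by 3.87 (SE 0.062). TUBA3D rose by 4.29 (SE 0.10), but this alpha-tubulin gene has near-identical copies and the treatment of reads shared with them is not given in the sources used here. CTD-2224J9.8, which had no match in the gene annotation, rose by 4.72 (SE 0.060).

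The largest falls were somewhat smaller in size than the largest rises. IGFBP3, which binds and sequesters insulin-like growth factors (chr7:45912245-45921874, minus strand), went from 305, 321 and 390 CPM with DMSO to 9.88, 11.6 and 12.6 CPM with R1881, a log2 fold change of -4.84 (SE 0.062, adjusted p = 7.3e-54). TRIB1, a pseudokinase that guides proteins to degradation, went from 1185, 1204 and 1339 CPM to 31.3, 44.2 and 50.9 CPM, a log2 fold change of -4.83 (SE 0.057). WNT2, a secreted WNT ligand (chr7:117275451-117323152, minus strand), went from 98.8, 104.8 and 107 CPM to 3.93, 4.40 and 5.35 CPM, a log2 fold change of -4.50 (SE 0.061). All 3 were clearly detected in starved cells, and no R1881 library came near the lowest DMSO library.

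B3GALT5, a glycosyltransferase, fell by 3.55 on the log2 scale (SE 0.062), and OPRK1, the kappa opioid receptor, fell by 3.24 (SE 0.056). IHH, a hedgehog ligand, had 29.6 to 58.6 CPM with DMSO and 1.62 to 5.85 CPM with R1881, a log2 fold change of -3.36 (SE 0.138). DOCK10, a guanine nucleotide exchange factor, fell by 3.24 (SE 0.080), DACH1, a transcriptional repressor, by 3.08 (SE 0.055) and P2RY1, a receptor for extracellular nucleotides, by 2.93 (SE 0.055). SSTR5-AS1 fell by 3.52 (SE 0.112), but it overlaps a gene on the other strand, and whether counting used strand is not given in the sources used here.

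**Figure D1:**
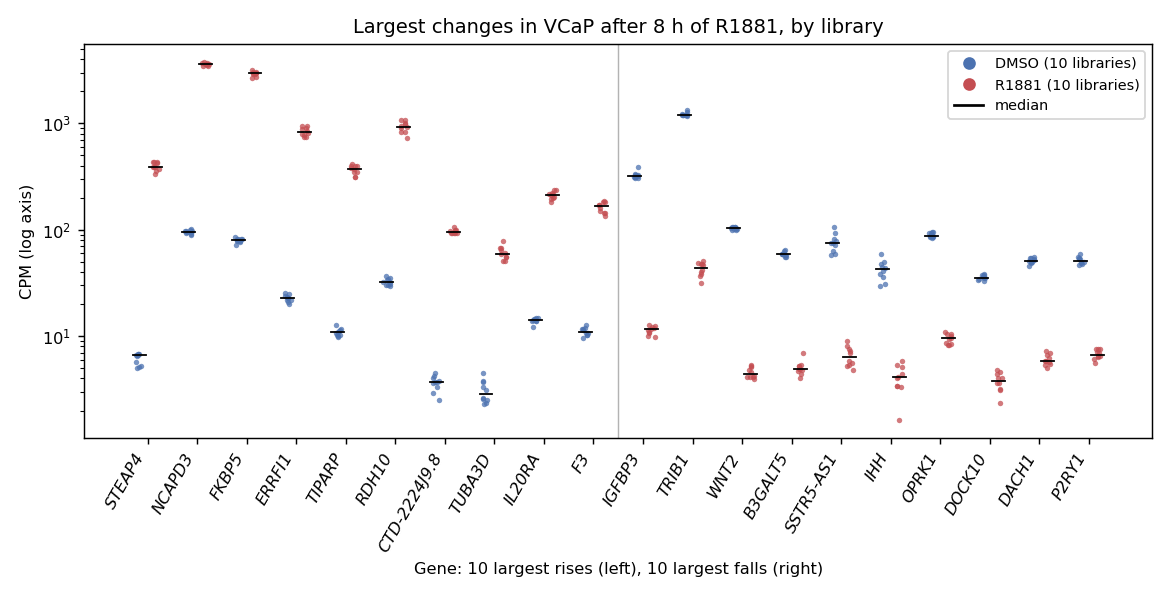
CPM on a log axis in each of the 10 DMSO libraries (blue) and 10 R1881 libraries (red) at 8 h for the 10 largest rises (left) and the 10 largest falls (right) among genes above the median expression, with black bars at the medians. The groups do not overlap for any of these genes, as their choice required, and STEAP4 goes from at most 6.80 CPM to at least 337 CPM.

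Genes listed here as induced by androgen in the prostate mostly rose. Of 48 members of this list, 43 rose, 3 fell and 2 did not pass the test, with a median log2 fold change of 1.38 beside -0.03 over all genes. R1881 libraries lay above all DMSO libraries for 41 members, beside 17.4% of all genes. The members without a call were KLK15 (adjusted p = 0.065) and MSMB (adjusted p = 0.062). Those that fell were FOLH1, PPFIBP2 and ACPP, and whether each of them belongs in this list was not tested. FOLH1, which encodes the prostate-specific membrane antigen, went from 266, 297 and 320 CPM to 39.9, 46.9 and 58.7 CPM, a log2 fold change of -2.68 (SE 0.051). PPFIBP2, a scaffold protein, fell by 0.88 (SE 0.039). FOLH1 has a near-identical copy in the genome.

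The genes that the study names were each tested except ACP4, which was too low. KLK3, the prostate-specific antigen (chr19:50854915-50860764, plus strand), had 14.2, 16.9 and 18.8 CPM with DMSO and 33.5, 37.6 and 46.9 CPM with R1881, a log2 fold change of 1.20 (SE 0.060). Its neighbour KLK2, a related protease (chr19:50861568-50880567, plus strand), had 2349, 2445 and 2706 CPM and then 4602, 4853 and 5087 CPM, a log2 fold change of 0.98 (SE 0.027). Both were thus separated from their controls, but by far less than FKBP5 or NCAPD3. The coding sequences of these 2 genes are alike, so reads could be split between them. TMPRSS2, a membrane protease (chr21:41464300-41531116, minus strand), rose from 50.4, 54.9 and 57.9 CPM to 489, 536 and 559 CPM, a log2 fold change of 3.28 (SE 0.030). ERG, an ETS transcription factor that VCaP cells transcribe from the fused TMPRSS2 promoter (chr21:38380027-38661780, minus strand), rose from 117, 124 and 131 CPM to 562, 616 and 727 CPM, a log2 fold change of 2.36 (SE 0.031). IGF1R, the receptor for insulin-like growth factors, rose from 188, 207 and 221 CPM to 838, 900 and 935 CPM, a log2 fold change of 2.11 (SE 0.023).

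PMEPA1, an inhibitor of TGF-beta signalling, rose by 0.68 (SE 0.020) on the log2 scale and MED1, a Mediator subunit, by 0.31 (SE 0.030). ACPP, the prostatic acid phosphatase, fell from 5475, 5923 and 6229 CPM to 3851, 4433 and 4812 CPM, a log2 fold change of -0.41 (SE 0.034). FOXA1, a pioneer factor of luminal cells, fell by 0.25 (SE 0.025). Together 9 of these 11 genes were higher and 2 lower with R1881, and the groups overlapped for none of them. They were taken from the study, which used these cells, so their direction is not independent evidence.

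The promoter of KLK3 is shown because it is the classical androgen-responsive promoter of this tissue. These are the 250 bases before its RefSeq start on GRCh38.p14 (chr19:50854665-50854914, plus strand), with capitals for AGAACA, the letters of 1 arm of the element bound by steroid receptors, found 170 bases before the start:
KLK3: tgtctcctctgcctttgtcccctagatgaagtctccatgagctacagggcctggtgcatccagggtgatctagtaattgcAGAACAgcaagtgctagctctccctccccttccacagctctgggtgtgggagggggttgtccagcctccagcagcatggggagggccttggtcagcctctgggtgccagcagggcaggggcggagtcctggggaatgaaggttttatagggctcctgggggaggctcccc
The windows from 250 bases before to 50 after each RefSeq start were searched on both strands, and 11325 of the 19266 tested genes were matched to at least 1 of them by symbol. AGAACA stood in the windows of 9 of 37 androgen-induced genes (24.3%), of 38 of 244 genes called with a log2 fold change above 2 (15.6%) and of 40 of 228 called below -2 (17.5%), beside 12.8% of all tested genes with a window. Both arms together, AGAACA and TGTTCT with 3 bases between them, stood in the windows of 0 of the 11325 genes. A short motif of this kind occurs often by its length alone, and these windows hold no distal enhancers.

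Among the androgen-repressed genes, 12 of 17 tested members fell and 4 rose, with a median log2 fold change of -1.02. UGT2B15, which inactivates androgens by glucuronidation, went from 10.4, 12.2 and 14.3 CPM to 0.493, 0.760 and 1.62 CPM, a log2 fold change of -3.87 (SE 0.124). NOV, a matricellular protein, went from 31.6 to 35.5 CPM to between 1.11 and 3.0 CPM, a log2 fold change of -4.11 (SE 0.095). PRUNE2, the member with the most reads, fell from 1387, 1500.4 and 1575 CPM to 790, 979 and 1083 CPM, a log2 fold change of -0.62 (SE 0.039). Its values did not overlap between the groups although the change was modest. The largest rises were those of UGT2B28 and UGT2B11, both below 1.4 CPM in all libraries, with log2 fold changes of 1.96 (SE 0.339) and 1.86 (SE 0.225). Genes of the UGT2B family share long stretches of sequence, so counts of single members are uncertain.

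Transcription factors of the prostate lineage went in both directions, with 9 of 18 tested members higher, 8 lower and a median of 0.05. SOX9, a factor of prostate development and stem-like cells, rose from 44.4, 48.3 and 51.2 CPM to 372, 417 and 441 CPM, a log2 fold change of 3.10 (SE 0.038). GATA2, which opens chromatin at hormone-responsive enhancers, fell from 232, 294 and 380 CPM to 80.6, 94.5 and 126 CPM, a log2 fold change of -1.58 (SE 0.086). HOXB13, a homeobox factor of the prostate, fell by 0.97 (SE 0.063) and ELF3, an epithelial ETS factor, by 1.07 (SE 0.060). Of the 10 luminal epithelial markers, 5 rose and 4 fell, with a median of 0.30. CLDN4, a tight junction protein, went from 39.2, 56.3 and 87.6 CPM to 19.4, 27.8 and 39.8 CPM, with overlap, and fell by 0.98 (SE 0.113), and HOXB13, FOLH1 and ACPP fell too. The 3 keratins of this list rose. KRT8 had 158, 205 and 253 CPM with DMSO and 808, 971 and 1338 CPM with R1881, and its partner KRT18 had 145, 165 and 174 CPM and then 579, 607 and 701 CPM. The log2 fold changes were 2.31 (SE 0.085) and 1.94 (SE 0.044), and that of KRT19 was 1.97 (SE 0.132).

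Of 33 nuclear receptors and coregulators, 14 rose and 11 fell, with a median of -0.01. RARB, a retinoic acid receptor, rose by 1.32 (SE 0.145) and NR4A1, an orphan receptor of the immediate early class, by 1.22 (SE 0.123). NR4A2, of the same family, fell from 10.4, 11.7 and 13.7 CPM to 1.17, 1.56 and 2.17 CPM, a log2 fold change of -2.92 (SE 0.099). PGR, the progesterone receptor, was at 1.90 CPM or less in all libraries and fell by 2.77 (SE 0.258). NCOA2, a coactivator of nuclear receptors, fell by 0.76 (SE 0.035).

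Genes known as targets of glucocorticoids, steroid hormones whose receptor binds the same DNA letters, rose in 11 of 19 tested members and fell in 7, with a median of 1.4, beside 1.38 for the androgen-induced genes. With members above a mean log2 CPM of 1 only, these medians were 1.06 and 1.39. The lists share members, FKBP5 and SGK1 among them, so their medians are not independent. All 11 rises were separated from the controls. FKBP5 and ERRFI1 led the list. SGK1, a kinase that controls ion channels, and PDK4, which blocks the entry of pyruvate into the citric acid cycle, lie outside the rule for named genes and were added after their values were seen. SGK1 rose from 1.37, 2.19 and 3.01 CPM to 38.3, 43.7 and 50.6 CPM, a log2 fold change of 4.24 (SE 0.091). PDK4 had at most 0.208 CPM with DMSO and 3.14 to 4.47 CPM with R1881, a log2 fold change of 4.93 (SE 0.200). Falls in this list were smaller, with HSD11B2, which inactivates cortisol, at -0.76 (SE 0.146) and KLF9, a zinc finger factor, at -0.74 (SE 0.087). The transcript of the glucocorticoid receptor itself, NR3C1, also named after its values were seen, fell from 4.29, 5.45 and 7.0 CPM to 1.42, 1.93 and 2.91 CPM, a log2 fold change of -1.4 (SE 0.107).

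The circadian clock genes had 8 rises and 10 falls among 22 tested members, with a median of -0.06. PER1, a repressor of the clock with a known steroid-responsive promoter, rose from 2.35, 4.16 and 5.88 CPM to 15.1, 20.7 and 29.3 CPM, a log2 fold change of 2.40 (SE 0.130). CRY1, another repressor, rose by 1.20 (SE 0.044). BHLHE41 fell by 2.02 (SE 0.087), while the kinase CSNK1D, the member with the most reads, rose by 0.54 (SE 0.049).

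Immediate early genes and feedback inhibitors of the ERK pathway fell in 14 and rose in 9 of 27 tested members, with a median of -0.20. SPRY4, which dampens growth factor signalling, went from 3.98, 5.88 and 8.94 CPM to 0.0448, 0.175 and 0.323 CPM, a log2 fold change of -5.07 (SE 0.205). DUSP6, a phosphatase of ERK, was at most 1.19 CPM in any library and fell by 2.25 (SE 0.349). SPRED1, another inhibitor of the pathway, went the other way from 6.25, 7.64 and 8.32 CPM to 29.8, 35 and 41.2 CPM, a log2 fold change of 2.20 (SE 0.062). ATF3, a stress-induced factor, rose by 1.4 (SE 0.187) at levels of at most 1.34 CPM, and FOSL2, an AP-1 subunit, by 0.43 (SE 0.043).

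Most genes of the secretory pathway rose. Proteins that leave the cell are folded in the endoplasmic reticulum (ER) with the help of chaperones, and load on this compartment is sensed by ERN1, a kinase and nuclease that splices the mRNA of XBP1. Of 36 genes of ER folding and secretion, all tested, 33 rose and 2 fell, with a median log2 fold change of 0.95, and 31 were separated upwards, beside 17.4% of all genes. ERN1 itself rose most, from 20.5, 22.5 and 25.5 CPM to 165, 173 and 182 CPM, a log2 fold change of 2.93 (SE 0.036). EDEM1, which hands misfolded glycoproteins to degradation, rose from 25.4, 29.4 and 31.5 CPM to 126, 159 and 175 CPM, a log2 fold change of 2.41 (SE 0.048). CANX, the lectin chaperone calnexin, rose by 0.57 (SE 0.031) from a median of 1293 CPM to 1915 CPM. The members that fell were CREB3L1, a membrane-bound transcription factor, at -1.55 (SE 0.098) and SEL1L, an adaptor of ER-associated degradation, at -0.13 (SE 0.038).

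Promoters of this list are shown because some of them hold an element that few other genes hold. The ER stress response element, CCAAT and CCACG with 9 bases between them, was found in either orientation in 7 of the 34 members with a RefSeq window (20.6%), beside 15 of 11325 tested genes (0.132%). It stood in 1 of 244 genes called above 2 (0.41%) and in 0 of 228 called below -2. The element is known from genes of this kind, so its share in the list is not a result about R1881. CCAAT alone, which the element contains, stood in 28 of the 34 (82.4%) beside 43.1% of tested genes, and in 16 of 21 cholesterol synthesis genes (76.2%). The first line is the 250 bases before the start of HSPA5, which encodes the main ER chaperone BiP, and the others are 59 bases around the element, all 5′ to 3′ in the direction of the gene, with the element in capitals:
HSPA5: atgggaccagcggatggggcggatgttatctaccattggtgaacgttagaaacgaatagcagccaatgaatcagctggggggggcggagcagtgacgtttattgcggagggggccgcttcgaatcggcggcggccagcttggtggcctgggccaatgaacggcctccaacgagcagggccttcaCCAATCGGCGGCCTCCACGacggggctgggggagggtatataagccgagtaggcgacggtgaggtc
CALR: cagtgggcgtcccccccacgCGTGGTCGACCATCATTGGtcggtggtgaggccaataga
CANX: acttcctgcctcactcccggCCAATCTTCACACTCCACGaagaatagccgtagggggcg
CRELD2: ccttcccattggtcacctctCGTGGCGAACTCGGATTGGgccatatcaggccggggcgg
HSP90B1: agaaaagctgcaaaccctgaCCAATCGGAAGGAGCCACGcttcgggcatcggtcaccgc
PDIA6: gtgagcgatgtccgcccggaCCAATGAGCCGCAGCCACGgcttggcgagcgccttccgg
XBP1: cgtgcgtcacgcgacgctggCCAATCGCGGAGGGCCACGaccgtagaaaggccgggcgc
They lie at chr9:125241344-125241593 (minus strand), chr19:12938364-12938422 (plus), chr5:179698758-179698816 (plus), chr22:49918534-49918592 (plus), chr12:103930196-103930254 (plus), chr2:10812833-10812891 (minus) and chr22:28800583-28800641 (minus) of GRCh38.p14. In CALR and CRELD2 the element reads on the other strand.

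All 7 of these genes rose, as did 33 of the 36 members of the list, and by less than ERN1 and EDEM1. HSPA5 went from 508, 539 and 569.9 CPM to 1248, 1391 and 1490.1 CPM, a log2 fold change of 1.37 (SE 0.029). CRELD2, an ER-resident disulphide isomerase, rose by 0.90 (SE 0.093), the lectin chaperone CALR by 0.79 (SE 0.032), the ER form of the HSP90 chaperone HSP90B1 by 0.76 (SE 0.036), the disulphide isomerase PDIA6 by 0.53 (SE 0.025) and XBP1 by 0.36 (SE 0.028). ERN1 and EDEM1 held CCAAT but not the whole element in their windows, which says only that these letters are not there.

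Coat proteins of vesicles and enzymes of glycosylation, which act downstream of ER folding, rose in 30 of 36 members and fell in 4, with a median of 0.64. SEC24D, a cargo adaptor of COPII vesicles, rose from 32.2, 35.3 and 38.7 CPM to 112.3, 124 and 135 CPM, a log2 fold change of 1.80 (SE 0.036). TMED2, a cargo receptor and the member with the most reads, rose by 0.46 (SE 0.030). Enzymes that start or extend O-linked sugars differed in direction. ST6GALNAC1, which adds sialic acid to the Tn antigen, rose by 1.60 (SE 0.053), while GALNT3 fell from 132, 144 and 155 CPM to 34.4, 38.5 and 43.1 CPM, a log2 fold change of -1.91 (SE 0.040), and GALNT7 fell by 0.52 (SE 0.041).

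The amino acid branch of the stress response was less uniform. Of 20 genes around ATF4, the transcription factor of amino acid shortage and ER stress, and of serine synthesis, 12 rose and 4 fell, with a median of 0.16. ATF4 rose from 242, 251 and 267 CPM to 396, 407 and 421 CPM, a log2 fold change of 0.69 (SE 0.023). Its targets DDIT3, a factor of ER stress, and CHAC1, which degrades glutathione, rose by 1.13 (SE 0.051) and 2.23 (SE 0.227), the latter at no more than 2.46 CPM. STC2, a secreted glycoprotein, and PHGDH, the first enzyme of serine synthesis, fell by 1.51 (SE 0.061) and 0.62 (SE 0.047). Aminoacyl-tRNA synthetases, which load tRNAs, rose in 10 and fell in 7 of 20 members, with a median of 0.07, from TARS at 0.99 (SE 0.030) and CARS at 0.82 (SE 0.045) to FARSB at -0.47 (SE 0.037) and VARS at -0.64 (SE 0.069). Of 19 amino acid transporters, 10 rose and 5 fell. SLC38A4 went from 0.239, 0.490 and 0.675 CPM to 10.9, 12.5 and 14.4 CPM, a log2 fold change of 4.78 (SE 0.125), and the lysosomal transporter SLC36A1 rose by 2.56 (SE 0.034). SLC7A8 fell by 1.37 (SE 0.078), and SLC1A1 by 0.66 (SE 0.086).

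**Figure D2:**
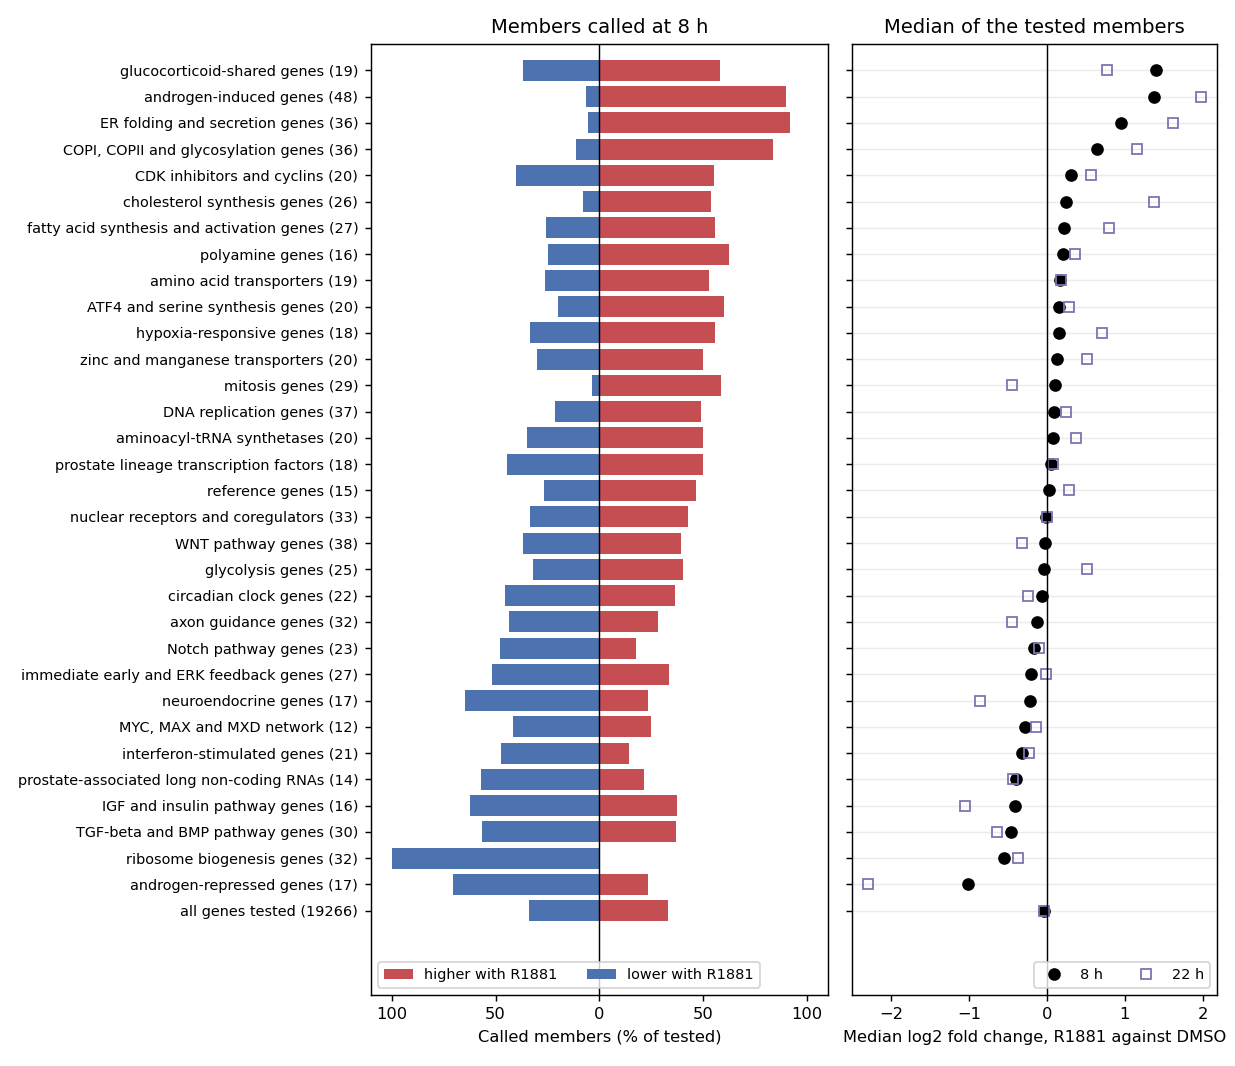
Left, the share of tested members called higher (red) or lower (blue) with R1881 at 8 h in each gene list, with the number tested in parentheses. Right, the median log2 fold change of the tested members at 8 h (filled circles) and 22 h (open squares), with glucocorticoid-shared genes at 1.4 (1.06 with members above a mean log2 CPM of 1 only), androgen-induced genes at 1.38 and androgen-repressed genes at -1.02 at 8 h.

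Cholesterol synthesis had only begun to move at 8 h. Of 26 genes, 14 rose, 2 fell and 10 did not pass the test, with a median of 0.24. The share called was 61.5%, beside 66.9% of all genes. IDI1, an isomerase of the mevalonate pathway, rose from 52.8, 58.5 and 64.6 CPM to 190, 217 and 240 CPM, a log2 fold change of 1.88 (SE 0.042). NSDHL, which removes methyl groups from sterols, rose by 1.45 (SE 0.050). PMVK and TM7SF2 fell by 0.30 (SE 0.073) and 0.28 (SE 0.095). In the fatty acid list 15 of 27 members rose and 7 fell, with a median of 0.22. ACSL3, which activates fatty acids, went from 268, 284 and 303 CPM to 1453, 1686 and 1794 CPM, a log2 fold change of 2.55 (SE 0.041), and the elongase ELOVL7 rose by 1.88 (SE 0.046). FABP5, a fatty acid carrier, fell from 30.5, 34.7 and 40.3 CPM to 7.44, 8.48 and 10.2 CPM, a log2 fold change of -2.03 (SE 0.054). ELOVL4, another elongase, fell by 0.73 (SE 0.055).

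Prostate cells make and secrete large amounts of polyamines. Of 16 polyamine genes, 10 rose and 4 fell, with a median of 0.20. SMS, spermine synthase, went from 204, 215 and 226 CPM to 856, 969 and 1022 CPM, a log2 fold change of 2.15 (SE 0.032), and SMOX, which oxidises spermine, rose by 2.14 (SE 0.120). AMD1, which supplies the aminopropyl group, rose by 0.48 (SE 0.038). ARG2, the mitochondrial arginase, fell by 2.08 (SE 0.041), and AZIN2, an activator of ornithine decarboxylase, by 0.43 (SE 0.117).

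Of 25 glycolysis genes, 10 rose and 8 fell, with a median of -0.03, and 72% were called beside 66.9% of all genes. SLC2A3, a glucose transporter, went from 0, 0.250 and 0.372 CPM to 6.67, 8.03 and 9.01 CPM, a log2 fold change of 5.06 (SE 0.132). PFKFB2, which makes an activator of phosphofructokinase, rose by 2.12 (SE 0.041), while its relative PFKFB3 fell by 0.42 (SE 0.052) and SLC16A1, a lactate transporter, by 0.55 (SE 0.043). GAPDH had a median of 1836 CPM with DMSO and 1844 CPM with R1881 (adjusted p = 0.69), and its sign turned under some settings. Hypoxia-responsive genes rose in 10 and fell in 6 of 18 members, with a median of 0.15. NDRG1, a stress-induced protein, went from 888, 992 and 1041 CPM to 3782, 3925 and 4254 CPM, a log2 fold change of 2.03 (SE 0.031). LOX, which crosslinks collagen, rose by 2.66 (SE 0.091) and ANKRD37 by 2.30 (SE 0.124), while ADM, a vasodilator peptide, fell by 1.88 (SE 0.208) at no more than 1.92 CPM.

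Zinc is stored in prostate secretion. Of 20 zinc and manganese transporters, 10 rose and 6 fell, with a median of 0.12. SLC30A4, a zinc exporter, went from 283, 309 and 321 CPM to 98.5, 125 and 143 CPM, a log2 fold change of -1.31 (SE 0.043), and SLC30A10, a manganese exporter, fell by 3.09 (SE 0.198) at no more than 2.90 CPM. SLC39A10, a zinc importer, rose by 1.02 (SE 0.049), and SLC30A2 rose by 2.24 (SE 0.176). The importer SLC39A6, the member with the most reads, rose by 0.15 (SE 0.033), but was at 0.054 under upper-quartile scaling (edgeR, adjusted p = 0.11), where the call was lost.

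Ribosome biogenesis was the most uniform of the lists. Its products make, modify and assemble ribosomal RNA in the nucleolus, and many are known targets of MYC. All 32 members were tested and all 32 fell, beside 34.1% of all genes, with log2 fold changes from -1.07 to -0.19 and a median of -0.55. R1881 libraries lay below all DMSO libraries for 27 of the 32. NCL, the nucleolar protein nucleolin and the member with the most reads, went from 686, 722 and 779 CPM to 470.2, 499 and 536 CPM, a log2 fold change of -0.53 (SE 0.026). BOP1, a factor of the large subunit, had the largest fall at -1.07 (SE 0.189), but its groups overlapped, with 11.1 to 37.2 CPM and 6.26 to 15.6 CPM. RRP12, which exports ribosomal subunits, fell from 20.1, 26.5 and 30.8 CPM to 10.2, 12.8 and 16.1 CPM, a log2 fold change of -0.98 (SE 0.092).

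MYC, a transcription factor of growth, fell from 225, 265 and 323 CPM to 47.6, 54.4 and 68.3 CPM, a log2 fold change of -2.23 (SE 0.059). In the network of MYC, its partner MAX and their antagonists, 3 of 12 tested members rose and 5 fell. The 66.7% called lay at the 66.9% of all genes. MYCL, a relative of MYC, rose by 0.99 (SE 0.076) and MLX, a partner of glucose-sensing factors, by 0.54 (SE 0.033). MXI1, an antagonist of MYC, fell by 1.06 (SE 0.032). MYC and this antagonist thus fell together.

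The start sites of this list are shown because CACGTG, the E-box that MYC and related factors bind, was common there. It stood in 12 of the 25 ribosome biogenesis genes with a window (48%), beside 12.3% of all tested genes, 11.5% of those called above 2 and 9.21% of those called below -2. The letters read the same on both strands, and their first 4 can overlap the CCACG arm of the ER stress response element, as in the lines of FBL, LYAR and UTP20. Windows of at most 30 bases around the E-box of 6 of these genes, 5′ to 3′ in the direction of the gene, with the E-box in capitals, were:
GNL3: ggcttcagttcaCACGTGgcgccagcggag
FBL: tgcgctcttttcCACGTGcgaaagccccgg
NOP14: tccgcggcccggCACGTGtcttagggtagc
LYAR: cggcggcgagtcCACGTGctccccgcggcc
WDR43: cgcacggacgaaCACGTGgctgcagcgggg
UTP20: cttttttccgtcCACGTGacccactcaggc
They lie at chr3:52686026-52686055 (plus strand), chr19:39846356-39846385 (minus), chr4:2963374-2963403 (minus), chr4:4290068-4290097 (minus), chr2:28894658-28894687 (plus) and chr12:101280083-101280112 (plus) of GRCh38.p14, from 64 bases before to 15 bases after the start. GNL3, the nucleolar GTPase nucleostemin, fell by 0.74 (SE 0.032), NOP14 by 0.61 (SE 0.034), LYAR by 0.57 (SE 0.037), WDR43 by 0.48 (SE 0.032), UTP20 by 0.29 (SE 0.045) and FBL, the methyltransferase fibrillarin, by 0.21 (SE 0.029). Holders of the E-box therefore included both strong and weak falls. The other 6 holders were BYSL, GAR1, NOP2, PES1, PNO1 and RRP9.

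Cell-cycle genes moved little at 8 h. Of 37 DNA replication genes, 18 rose and 8 fell, with a median of 0.09, and 70.3% were called beside 66.9% of all genes. GINS3, a subunit of the replicative helicase, rose by 1.31 (SE 0.049) and CDC6, which licenses origins, by 0.69 (SE 0.044). PRIM1, the primase, fell from 23.5, 26.2 and 29.1 CPM to 9.37, 10.6 and 12.3 CPM, a log2 fold change of -1.31 (SE 0.055), and the helicase subunits MCM2 and MCM4 fell by 0.47 (SE 0.066) and 0.10 (SE 0.024). Of 29 mitosis genes, 17 rose and 1 fell, with a median of 0.11, but under upper-quartile scaling 11 rose and 5 fell. As reported, 62.1% of them were called, beside the same 66.9%. KIF20A, a mitotic kinesin, rose by 0.80 (SE 0.035) and CDC20, an activator of the anaphase-promoting complex, by 0.48 (SE 0.044). BUB1B, a checkpoint kinase, fell by 0.32 (SE 0.044).

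Of 20 CDK inhibitors, cyclins and related genes, 11 rose and 8 fell, with a median of 0.30. GADD45G, a growth arrest protein, went from 0.694, 1.32 and 2.58 CPM to 7.79, 12.5 and 25.1 CPM, a log2 fold change of 3.16 (SE 0.198), while GADD45A fell by 1.59 (SE 0.070). CDK6 rose by 2.66 (SE 0.120) from no more than 1.64 CPM, CCND1 by 0.27 (SE 0.021), and CCNG2 fell by 0.96 (SE 0.043). CDKN1A, the p21 inhibitor, was added after its values were seen, and rose from 15.1, 19.3 and 21.3 CPM to 34.0, 37.1 and 41.9 CPM, a log2 fold change of 1.00 (SE 0.052).

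Growth factor and developmental pathways went in both directions. Of 38 WNT pathway genes, 15 rose and 14 fell, beside 32.8% and 34.1% of all genes. The ligands WNT2 and WNT10B fell, the latter by 2.49 (SE 0.110). The receptor FZD5 rose from 10.8, 12.9 and 15.3 CPM to 144, 153 and 167 CPM, a log2 fold change of 3.56 (SE 0.045). LGR5, a receptor that amplifies WNT signals, was at 0 to 0.137 CPM with DMSO and at 0.404 to 1.10 CPM with R1881, and LEF1, a nuclear effector, rose by 0.58 (SE 0.027).

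TGF-beta and BMP genes fell in 17 and rose in 11 of 30 tested members, with a median of -0.46. INHBA, a subunit of activin, went from 8.43, 9.19 and 9.97 CPM to 0.447, 0.632 and 1.05 CPM, a log2 fold change of -3.78 (SE 0.10). BAMBI, a decoy receptor, fell by 2.90 (SE 0.158). BMPR1B, a BMP receptor, rose from 37.4, 39.0 and 44.4 CPM to 187, 214 and 243 CPM, a log2 fold change of 2.43 (SE 0.042), and the ligand TGFB2 rose by 2.33 (SE 0.082). In the IGF and insulin list all 16 tested members were called, 6 higher and 10 lower, with a median of -0.41. The receptor IGF1R rose while the binding protein IGFBP3 fell, as given above, and the ligand IGF1 rose by 2.63 (SE 0.373) at no more than 0.782 CPM.

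Notch genes fell in 11 and rose in 4 of 23 members, with a median of -0.17. The 65.2% called lay near the 66.9% of all genes. The receptor NOTCH2 rose by 1.11 (SE 0.030) from a median of 130.1 to 281 CPM and DTX1, a regulator of the receptor, by 1.02 (SE 0.107). JAG2, a ligand, and LFNG, which modifies the receptor, fell by 0.96 (SE 0.169) and 0.98 (SE 0.199), with overlapping groups. Of 32 axon guidance genes, 9 rose and 14 fell, with a median of -0.13, and 71.9% were called, beside the same 66.9%. The secreted semaphorin SEMA3C rose from 17.7, 20.2 and 23.4 CPM to 105.4, 121 and 136 CPM, a log2 fold change of 2.55 (SE 0.059), while SEMA3E fell by 2.04 (SE 0.067) and the membrane-bound SEMA6A by 1.12 (SE 0.035). EPHA7, an ephrin receptor, rose by 3.17 (SE 0.123), and UNC5C, a netrin receptor, fell by 2.79 (SE 0.338) at no more than 0.918 CPM.

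Neuroendocrine genes fell in 11 and rose in 4 of 17 tested members, with a median of -0.22. CHGA, a granule protein, was at 128 to 199 CPM with DMSO and at 94.8 to 143 CPM with R1881, with overlap, and fell by 0.42 (SE 0.077). DDC, which makes dopamine and serotonin, fell by 1.08 (SE 0.062), NTS, the neuropeptide neurotensin, by 0.90 (SE 0.113) and PEG10 by 0.63 (SE 0.027). INSM1 and SYP rose by 0.50 (SE 0.044) and 0.26 (SE 0.041). Of 21 interferon-stimulated genes, 10 fell and 3 rose, with a median of -0.32. The 61.9% called lay below the 66.9% of all genes. With the 10 members above a mean log2 CPM of 1 only, the median was -0.17. OAS1, an antiviral enzyme, went from 2.96, 3.35 and 4.07 CPM to 0.391, 0.509 and 1.30 CPM, a log2 fold change of -2.41 (SE 0.142), and IFIT2 fell by 2.07 (SE 0.147). STAT2, a factor of the interferon response, fell by 0.33 (SE 0.033), while USP18, which restrains it, rose by 1.5 (SE 0.069).

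Of 14 long non-coding RNAs associated with the prostate, 8 fell and 3 rose, with a median of -0.40. PCAT14, the member with the most reads, rose from 587, 614 and 641 CPM to 991, 1163 and 1246 CPM, a log2 fold change of 0.88 (SE 0.035). PCAT1 fell from 9.84, 10.8 and 11.6 CPM to 0.962, 1.18 and 1.62 CPM, a log2 fold change of -3.19 (SE 0.079), and HOTAIR fell by 2.58 (SE 0.390) at no more than 1.14 CPM. CTBP1-AS, an antisense RNA with the same limit on strand as SSTR5-AS1, rose by 2.28 (SE 0.220). Of the 15 reference genes often used to scale expression, 7 rose and 4 fell, with ACTB at 0.46 (SE 0.059) and PPIA at -0.13 (SE 0.030). The 73.3% called stands beside 66.9% of all genes.

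Rises and falls were also counted by class of gene. Of 601 tested long non-coding RNAs in the annotation, 93 rose and 347 fell, with a median of -0.43, while 13311 protein-coding genes had 5060 rises and 4738 falls. Among 2110 pseudogenes, 533 rose and 427 fell. A further 3189 tested genes had no match in the annotation, so their class is not known. Of these, 633 rose and 1039 fell, with a median of -0.12. The same was done over 4 equal bins of mean log2 CPM. In the highest bin, 2496 of 4817 genes rose and 1274 fell, and in the lowest bin 721 rose and 1719 fell. Long non-coding RNAs fell more often than they rose in each bin, by 159 to 35 in the lowest and by 17 to 7 in the highest.

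**Figure D3:**
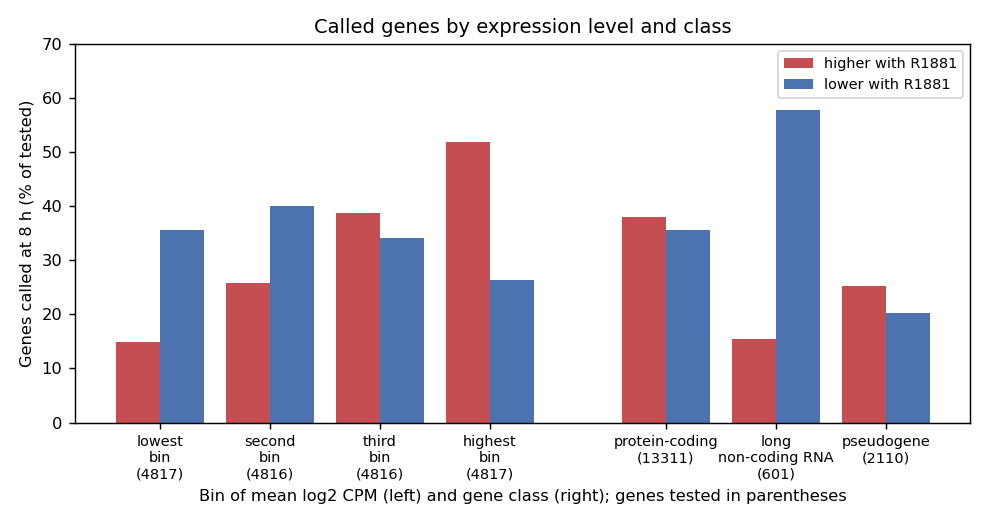
Share of tested genes called higher (red) or lower (blue) with R1881 at 8 h, in percent, by bin of mean log2 CPM (left) and by gene class (right), with the number tested in parentheses. The class bars leave out genes with no match in the annotation. Falls outnumber rises in the lowest bin (1719 against 721) and among long non-coding RNAs (347 against 93), and rises outnumber falls in the highest bin (2496 against 1274).

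The response at 8 h was then set beside that at 22 h, measured in 8 DMSO and 9 R1881 libraries of their own. At 22 h, 14910 genes were called (77.4%), and the R1881 effect differed between the times for 11633 genes (60.4%, interaction contrast in edgeR). Of the genes called at 8 h, 9292 were called in the same direction at 22 h, 1556 in the opposite direction and 2043 not at all. Of the 2818 genes with a log2 fold change above 1 in either direction at 8 h, 2390 were called in the same direction at 22 h. The change was larger at 22 h in the same direction for 710 of the 2818. It was smaller in size at 22 h, in the same or the opposite direction, for 1086, while for 999 the difference was not called.

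RDH10 had the most transient of the 10 largest rises, with a log2 fold change of 4.83 at 8 h and of 0.13 at 22 h (SE 0.067, adjusted p = 0.068), a difference of -4.70 (SE 0.089). TIPARP went from 5.07 to 1.97 and F3 from 3.87 to 1.29, with differences of -3.10 and -2.58, and ERRFI1 went from 5.19 to 3.17. NEURL1B, a ubiquitin ligase of the Notch pathway, and VCL, the adhesion protein vinculin, went from 3.07 to 0.14 and from 3.0 to 0.23. VCL had 50.8 to 61.0 CPM with DMSO and 380.2 to 486 CPM with R1881 at 8 h. These early rises had thus largely or partly returned by 22 h. SGK1 went from 4.24 to 1.14. PDK4 went from 4.93 at 8 h to -1.72 (SE 0.46) at 22 h. At 22 h its mean was only 0.178 CPM with DMSO and 0.048 CPM with R1881, so the later value lies near the floor.

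Other genes changed sign between the times, in 1556 cases called at both. FAM105A went from 35.2 to 274 CPM in the medians at 8 h, a log2 fold change of 2.93 (SE 0.045), and was at -0.13 at 22 h. PHF19, a Polycomb cofactor, went from 2.25 to -0.35 and ITGA9, an integrin chain, from 0.73 to -2.32. RP11-267M23.1, which had no match in the annotation, went from 2.96 to -0.31. In the other direction, SCD, the desaturase that makes monounsaturated fatty acids, was at -0.18 (SE 0.033) at 8 h and 2.70 at 22 h. PLA2G4F, a phospholipase, went from -1.71 to 1.51, MYO1G, a myosin, from -0.93 to 1.99 and RP11-283C24.1 from -0.21 to 2.70. SPRY4 went from -5.07 to 0.64. The early falls of NPR3, a receptor for natriuretic peptides, and FRMD4B reached -2.35 and -1.66, against -0.26 and -0.10 later, and those of IHH and SSTR5-AS1 reached -3.36 and -3.52, against -1.08 and -1.81 later. HES1, a Notch target named after its values were seen, was not called at 8 h (0.18, SE 0.102, adjusted p = 0.13) and was at 3.89 at 22 h.

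**Figure D4:**
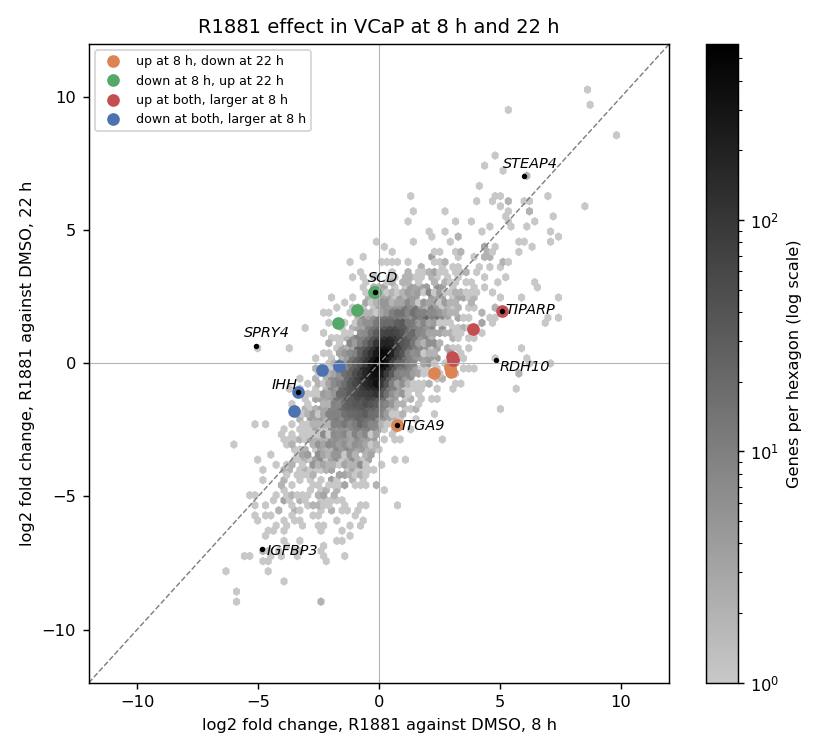
Log2 fold change of R1881 against DMSO in VCaP at 8 h (x axis) and 22 h (y axis) for all 19266 tested genes, as hexagons shaded by the number of genes (log scale), with genes of opposite sign or larger change at 8 h in colour and a dashed line of equal change. The difference between the times was called for 11633 genes, and RDH10 lies at 4.83 and 0.13 and SPRY4 at -5.07 and 0.64.

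Whole lists moved differently with time. Of the 29 mitosis genes, 17 rose and 1 fell at 8 h, while 2 rose and 24 fell at 22 h, and the difference between the times was called for 28, beside 60.4% of all genes. Over all genes, 37.4% rose and 40% fell at 22 h. The median of the mitosis genes went from 0.11 to -0.45. TOP2A, a topoisomerase of dividing cells, was at 0.05 (SE 0.041, adjusted p = 0.30) and then at -0.79. For cholesterol synthesis 14 of 26 genes rose at 8 h and 24 at 22 h, with medians of 0.24 and 1.38, and for ER folding 33 and 35 of 36, with medians of 0.95 and 1.61. For ribosome biogenesis 32 of 32 genes fell at 8 h, and 24 fell and 1 rose at 22 h, with medians of -0.55 and -0.38. Glucocorticoid-shared genes went from a median of 1.4 to 0.78, and androgen-induced genes from 1.38 to 1.98.

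KLK3, ACPP and HOXB13 show the same in single genes. The log2 fold change of KLK3 was 1.20 at 8 h and 3.44 at 22 h, a difference of 2.24 (SE 0.087). ACPP was at -0.41 and 0.80, and HOXB13 at -0.97 and 0.25. The falls of IGFBP3 and WNT2 were deeper at 22 h, IGFBP3 from -4.84 to -6.98 and WNT2 from -4.50 to -7.33.

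**Figure D5:**
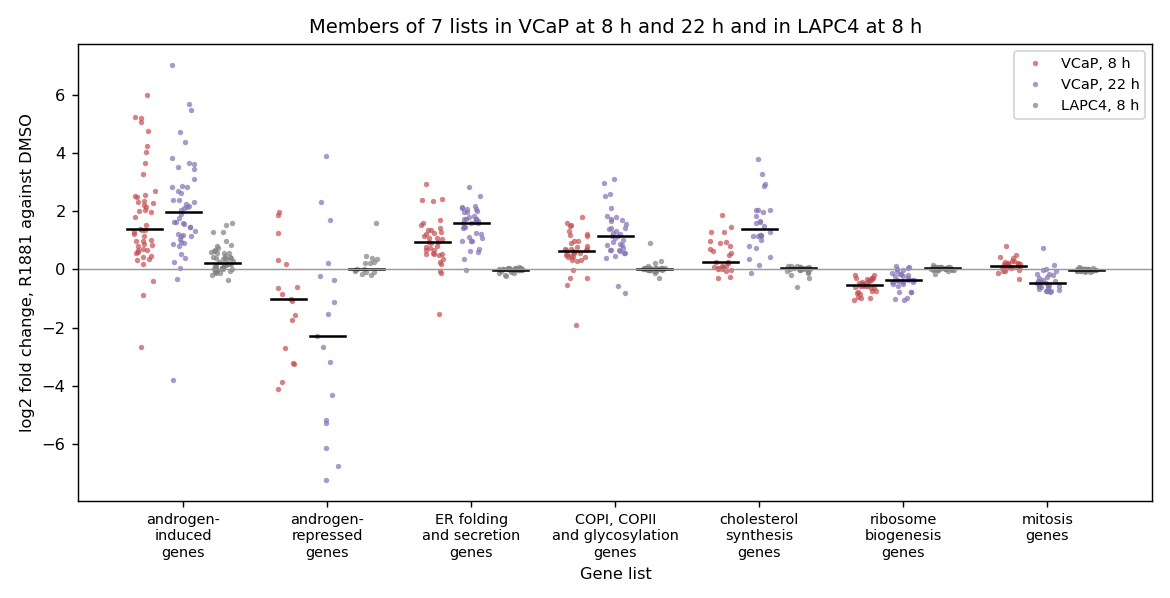
Log2 fold change of R1881 against DMSO for each tested member of 7 lists in VCaP at 8 h (red) and 22 h (violet) and in LAPC4 at 8 h (grey), with black bars at the medians. The median of androgen-induced genes was 1.38, 1.98 and 0.22 in this order, and that of ribosome biogenesis genes -0.55, -0.38 and 0.04.

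LAPC4, another androgen-responsive prostate cancer line, was given the same treatments for 8 h in 10 libraries per group. In a fit of both lines over 16578 genes, R1881 changed 388 genes in LAPC4 (2.34%), and its effect differed between the lines for 9699 genes (58.5%). The VCaP calls, taken from the fit of the VCaP libraries alone, covered 11157 of these 16578 genes, so much of any set of genes would lie among them. Of the genes called in each line, 361 were called in both, which is 3.24% of these VCaP calls and 93.0% of the LAPC4 calls. Their direction was the same for 243 and opposite for 118. NCAPD3 rose in VCaP and was at 0.04 in LAPC4 (adjusted p = 0.78), a difference of 5.13 (SE 0.046). FKBP5 rose in both lines, with 0.63 in LAPC4 and a difference of 4.50 (SE 0.055). STEAP4 was at -0.35 in LAPC4. KLK2 rose more in LAPC4, at 1.52, with a difference of -0.60 (SE 0.095), and for KLK3, at 0.98 in LAPC4, the difference of 0.15 (SE 0.090) was not called (adjusted p = 0.14). The median of the 48 androgen-induced genes was 0.22 in LAPC4, and that of the 36 ER folding genes -0.0043.

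VCaP cells were also given R1881 together with darolutamide, a drug that blocks the response to androgen, for 8 h at a low dose of 0.5 µM in 4 libraries and a high dose of 2 µM in 5. Comparisons with these libraries would share the R1881 libraries, so only levels are given here. STEAP4, at 6.58 CPM in the median with DMSO and 392 with R1881, had 341 to 368 CPM with the low dose and 141 to 153 with the high dose. FKBP5, at 80.7 and 2967 CPM, had 1435 to 1485 and 459 to 496 CPM, and NCAPD3, at 96.2 and 3620 CPM, had 2123 to 2229 and 728 to 780 CPM. With the high dose these 3 genes thus still lay above all DMSO libraries. RDH10 had 274 to 300.2 and 37.8 to 44.1 CPM, TIPARP 62.0 to 73.0 and 16.9 to 18.1 CPM, and ERRFI1 199 to 216 and 46.5 to 51.0 CPM. Of the genes lower with R1881, IGFBP3, at 321 and 11.6 CPM, had 27.5 to 29.4 and 74.9 to 85.0 CPM, WNT2 had 13.6 to 17.5 and 44.8 to 49.9 CPM, and TRIB1 had 141 to 175 and 378 to 434 CPM. For KLK2 the low dose gave 4799 to 5168 CPM, which overlaps the 4602 to 5087 CPM with R1881 alone, and the high dose 3798 to 4329 CPM. The levels of TMPRSS2 were 427 to 445 and 211 to 229 CPM, and those of ERG 572 to 595 and 385 to 408 CPM. PMEPA1 had 1309 to 1350 and 1303 to 1360 CPM, above both R1881 alone (980 to 1087 CPM) and DMSO (609 to 671 CPM). FOXA1 had 700.2 to 722 and 719 to 764 CPM, above R1881 alone (513 to 614 CPM), with the high dose also above DMSO (646 to 706 CPM). Of the 29 genes that are among the 10 largest rises or falls or are named by the study, the median lay between those of DMSO and R1881 for 25 with the low dose and for 27 with the high dose. The exceptions were PMEPA1 and FOXA1 at both doses and KLK2 and KLK3 at the low dose, all of them genes the study names. The largest rises and falls were chosen for wide separation of these same DMSO and R1881 libraries. A median between the groups is therefore favoured by that choice, and the share over all tested genes was not computed.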

How the data were processed

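Read files were made with bcl2fastq 2.17 (submitters' processing notes), STAR placed the reads on GRCh38, featureCounts summed them by gene, and the authors deposited the raw counts of 55 VCaP and 57 LAPC4 libraries as 1 table. The annotation, the setting for strand and the handling of multiply aligned reads are not given in the sources used here. The methods of the study name 5 replicates per condition, while the labels give 10 libraries in each 8 h group, all of which were used. Groups were taken from the labels.

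A gene was kept if 4 or more VCaP libraries had 10 or more reads of it. The 55 VCaP libraries in 8 groups were fitted together with edgeR 4.0.16 (R 4.3.3, TMM scaling, glmQLFit, glmQLFTest), and a Benjamini-Hochberg adjusted p under 0.05 made a call. The SE is the absolute log2 fold change over the square root of F. CPM values use the TMM factors. The lines were compared in a fit of all libraries. The fits were tested on simulated data. Library measures were compared with two-sided permutation tests with 100000 resamples. Positions and gene classes come from GENCODE 44, and promoters from RefSeq.

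The comparison, its 32 gene lists and the rule for named genes were chosen with earlier results of these data known, and no list was tested. The rule takes the 10 largest rises and falls above the median log2 CPM without overlap between the groups. It takes the 2 largest rises, the 2 largest falls and the member with the highest mean CPM of each list, the genes the study names, those with the largest differences between 8 h and 22 h, and the markers. A few genes that it names are not reported here. The alternatives were DESeq2 1.42.0, other scalings, filters and libraries, the replicate number as a block, a GC covariate and the omission of each replicate. For the difference between 22 h and 8 h and for the difference between lines, only part of them was run.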

Additional observations from a re-analysis of the deposited data

Results flagged for a closer look

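Groups of 10 libraries, each a named gene or library measure in 1 treatment, were examined, 404 in all. They share the same 20 libraries, so no rate expected by chance is set beside the count. In 22 of these groups the highest or lowest library stood far from the others. With DMSO these were IL20RA (replicate 7, 12.1 CPM), IGFBP3 (replicate 9, 390.5 CPM), TARS (replicate 10, 85.0 CPM), FARSB (replicate 10, 69.6 CPM), NSDHL (replicate 1, 9.74 CPM), FABP5 (replicate 9, 40.3 CPM) and GADD45A (replicate 4, 7.94 CPM). The same held for CCND1 (replicate 10, 219 CPM), LFNG (replicate 1, 0.492 CPM), JAG2 (replicate 10, 29.8 CPM), KLK2 (replicate 4, 2706 CPM), CLDN4 (replicate 10, 87.6 CPM) and MYH11 (replicate 7, 2.16 CPM). DMSO replicate 7 had the fewest reads, 12870607, and the fewest genes with a read, 24244. With R1881 they were CTD-2224J9.8 (replicate 1, 105.1 CPM), B3GALT5 (replicate 5, 6.87 CPM), PGR (replicate 3, 0.542 CPM), HSD11B2 (replicate 6, 0.726 CPM), LFNG (replicate 8, 1.48 CPM), PCAT1 (replicate 5, 1.62 CPM) and LUM (replicate 5, 3.99 CPM).

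The R1881 effect differed between 22 h and 8 h for 11633 genes. Among the 10 largest rises at 8 h, the difference of the log2 fold changes, 22 h minus 8 h, was 1.03 for STEAP4, 0.45 for NCAPD3, 0.29 for FKBP5, -2.02 for ERRFI1, -3.10 for TIPARP, -4.70 for RDH10, -0.51 for CTD-2224J9.8, -0.84 for IL20RA and -2.58 for F3. Among the 10 largest falls it was -2.14 for IGFBP3, 0.80 for TRIB1, -2.83 for WNT2, 1.71 for SSTR5-AS1, 2.28 for IHH, -1.94 for OPRK1, -0.36 for DACH1 and 1.12 for P2RY1. For genes that changed sign it was -3.27 for RP11-267M23.1, -3.06 for FAM105A, -3.05 for ITGA9, -2.60 for PHF19, 3.22 for PLA2G4F, 2.93 for MYO1G, 2.91 for RP11-283C24.1 and 2.87 for SCD. For the other early changes it was -2.93 for NEURL1B, -2.77 for VCL, 2.09 for NPR3 and 1.57 for FRMD4B. Many of these genes were chosen for this difference, so the values describe the choice.

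Between the cell lines, the effect at 8 h differed for 9699 genes. Among genes the study names, the difference of the log2 fold changes, VCaP minus LAPC4, was 5.13 for NCAPD3, 4.50 for FKBP5, 3.01 for TMPRSS2, 1.86 for IGF1R, 0.25 for MED1, 0.23 for PMEPA1, -0.25 for FOXA1, -0.28 for ACPP and -0.60 for KLK2.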

How the results depend on the processing

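Between 11108 and 13990 genes were called under the alternatives, beside 12891 as reported, with 12822 by DESeq2 and 12490 to 12909 when 1 replicate number was left out. Without a filter on low counts, 4414 genes had a called log2 fold change above 1 in either direction and 2715 one below -1, beside 2818 and 1595, since genes with few reads enter. The other alternatives gave 2779 to 2927. The difference between the times was called for 9301 to 12592 genes and that between the lines for 7662 to 9589. Filters and the omission of replicates were not run for these differences, nor DESeq2 for the lines. Leaving out DMSO replicate 7, chosen after seeing the depths, gave 12944 calls, 5826 higher and 7118 lower.

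No pairing of the libraries by replicate number was seen. Over 10 pairs, deviations from the group means correlated by -0.033 on average (-0.422 to 0.354), and 2 R1881 libraries correlated best with their own number. The main axis of these deviations held 28.7% of their variance and followed the dependence of counts on GC content (absolute Pearson r 0.993). Whether a pairing lies beneath it was not tested. With the number as a replicate block, 12015 genes were called at 8 h, 11158 for the difference between the times and 9094 for that between the lines.

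Over replicates 1 to 5 the mitochondrial share was lower with R1881 by 0.162 percentage points (-0.162, exact permutation test, adjusted p = 0.013), and over replicates 6 and above the fall in genes with a read (-746.6) was not called (exact permutation test, adjusted p = 0.22). With members above a mean log2 CPM of 1 only, the medians of nuclear receptors (0.010), clock genes (0.016) and WNT genes (0.19) turned positive. Signs also turned for genes without a call. GAPDH was at -0.070 under upper-quartile scaling, -0.056 over replicates 6 and above, -0.0039 without DMSO replicate 7 and -0.019 to 0.051 without single numbers. TOP2A was at -0.046 under upper-quartile scaling and -0.016 over replicates 1 to 5. Over replicates 1 to 5, KRT14 was at -0.063 and COL1A1 at 0.0059, and over 6 and above, MYH11 was at -0.064 and VWF at 0.19. Without single numbers EPCAM ranged from -0.049 to 0.018, KRT14 from -0.16 to 0.47 and VWF from -0.31 to 0.053. Among calls lost, SLC39A6 was at 0.054 and SCG3 at 0.079 under upper-quartile scaling. Over replicates 1 to 5, TM7SF2 was at -0.25, ISG20 at 0.72 (0.67 over 6 and above) and SCG3 at 0.13. RP11-283C24.1 was at -0.22 with the block and -0.15 without number 8. GAPDH was called with the GC covariate (0.051), EPCAM under upper-quartile scaling (-0.097), and RPLP0 and ITGB4, both without a call as reported, under several settings. In addition, 17 counts of list members moved by over 1.5 times, mostly those of mitosis genes. The cause was not tested.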
